A study of Mus musculus with 6 samples.

Results

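DNA replication and S phase genes were examined in mouse eEnd2 cells that expressed human integrin β1 either as wildtype or with the K794Q mutation. The members were the rows of the count table whose symbol was in a list of 49 genes, and all 49 were found among the 23420 gene symbols of the table. eEnd2 is an embryonic endothelial cell line. RNA was sequenced from 3 cultures per group after removal of ribosomal RNA with Ribo-Zero Plus, and reads were counted per gene. The cultures are called K794Q-A, K794Q-B and K794Q-C and WT-A, WT-B and WT-C, and values of a group are given in this order.

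Both groups carried the same kind of construct: human integrin β1A, with GFP inserted in its extracellular part, under a short human β-actin promoter next to a matrix attachment region of the chicken lysozyme gene. The groups differed in the lysine K794 of the cytoplasmic tail, which was kept in β1-WT-GFP cells and replaced by glutamine, a mimic of acetylated lysine, in β1-K794Q-GFP cells. The cells were stably transfected, sorted as GFP-positive populations, grown without further treatment in DMEM that held fetal calf serum (10%) and antibiotics (2%), and collected at confluence. No source used here describes a deletion of the mouse gene Itgb1, which was read at 1146, 2677 and 1180.4 CPM (counts per 10 to the power 6, after scaling of the libraries) in the K794Q cultures and at 733, 915 and 1354 CPM in the WT cultures. The study aligned reads to the mouse genome, and whether reads of the human construct entered the Itgb1 values was not tested. Counts per gene cannot show the K794Q substitution itself. Whether the cultures of a group came from separate transfections or sorts is not given, so p values measure the spread between these cultures only.

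Before a cell copies its DNA, the Mcm2 to Mcm7 helicase is loaded on origins with the help of Cdc6 and Cdt1. In S phase Cdc45 and the GINS proteins complete and start the helicase, primase and DNA polymerase α begin new strands, polymerases δ and ε extend them on the sliding clamp Pcna, and nucleotides, histones and maintenance methylation have to keep pace. Most of these genes are transcribed around the G1/S transition under control of E2F transcription factors and the retinoblastoma proteins, so that their messenger RNA is taken as a marker of cells entering or passing S phase, and endothelial cells at confluence usually carry little of it.

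Because the members share this kind of control, their promoters were examined first. RefSeq promoters of GRCm38.p6, each running from 250 bases before to 50 bases after a transcription start, were held for 38 of the 49 members. The letters TTTCCCGC, TTTCGCGC, TTTGCCGC or TTTGGCGC, which are common forms of an E2F motif, occurred on either strand in 18 of these 38 genes (47.4%). The same letters occurred in 431 of the 8601 tested genes with a promoter (5.01%), in 14 of the 48 other replication genes with a promoter, and in 2.26% of all promoters of this length. The letters CCAAT, the core of an NF-Y motif, were in 24 of the 38 members (63.2%) against 43.5% of tested genes and 37.4% of all promoters. TTTGAA, the core of the CHR motif of mitotic genes, was in 7 of the 38 (18.4%) against 13.8% of tested genes and 17.9% of all promoters. A match of letters is a description of a window and not evidence that a factor is bound there.

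Examples with such letters are shown for helicase subunits Mcm5 at chr8:75109259-75109558 (plus strand) and Mcm6 at chr1:128359656-128359955 (minus strand), for Gins3 at chr8:95633309-95633608 (plus strand), whose K794Q cultures were all above the WT cultures, and for E2f7 at chr10:110745189-110745488 (plus strand). The promoters of E2f1 at chr2:154569377-154569676 (minus strand), Tyms at chr5:30073576-30073875 (minus strand) and Pcna at chr2:132253131-132253430 (minus strand) are shown because these genes lead the results below and hold none of the searched E2F letters in this window. The E2f1 window lies inside the annotated gene (chr2:154559407-154569892), downstream of its annotated 5′ end. The sequence upstream of that end was therefore not searched. All windows are written 5′ to 3′ along the gene's own strand, with the E2F letters in capitals. The run of capitals in Mcm5, and the longer of those in Mcm6, each join a pair of overlapping matches on opposite strands.
Mcm5: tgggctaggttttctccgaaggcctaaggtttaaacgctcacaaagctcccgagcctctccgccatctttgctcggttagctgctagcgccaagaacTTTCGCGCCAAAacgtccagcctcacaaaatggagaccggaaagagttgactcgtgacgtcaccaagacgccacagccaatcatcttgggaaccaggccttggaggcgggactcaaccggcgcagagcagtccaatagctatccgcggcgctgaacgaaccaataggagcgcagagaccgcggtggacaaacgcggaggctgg
Mcm6: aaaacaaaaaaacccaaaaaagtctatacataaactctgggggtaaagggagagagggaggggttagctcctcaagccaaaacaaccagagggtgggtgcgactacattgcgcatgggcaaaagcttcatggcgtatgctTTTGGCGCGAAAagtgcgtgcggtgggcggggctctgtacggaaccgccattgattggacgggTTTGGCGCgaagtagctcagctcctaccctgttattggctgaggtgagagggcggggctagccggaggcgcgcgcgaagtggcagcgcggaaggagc
Gins3: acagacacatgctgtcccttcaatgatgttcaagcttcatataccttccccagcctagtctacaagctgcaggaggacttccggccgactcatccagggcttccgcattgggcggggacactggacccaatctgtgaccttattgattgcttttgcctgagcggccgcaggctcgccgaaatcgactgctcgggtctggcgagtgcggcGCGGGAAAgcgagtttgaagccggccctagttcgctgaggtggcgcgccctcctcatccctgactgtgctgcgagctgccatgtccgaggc
E2f7: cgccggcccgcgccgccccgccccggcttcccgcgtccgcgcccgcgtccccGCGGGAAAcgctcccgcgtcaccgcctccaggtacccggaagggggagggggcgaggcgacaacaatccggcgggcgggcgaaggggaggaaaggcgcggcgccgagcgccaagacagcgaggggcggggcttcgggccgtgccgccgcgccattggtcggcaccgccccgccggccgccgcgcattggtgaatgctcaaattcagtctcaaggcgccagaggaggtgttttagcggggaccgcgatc
E2f1: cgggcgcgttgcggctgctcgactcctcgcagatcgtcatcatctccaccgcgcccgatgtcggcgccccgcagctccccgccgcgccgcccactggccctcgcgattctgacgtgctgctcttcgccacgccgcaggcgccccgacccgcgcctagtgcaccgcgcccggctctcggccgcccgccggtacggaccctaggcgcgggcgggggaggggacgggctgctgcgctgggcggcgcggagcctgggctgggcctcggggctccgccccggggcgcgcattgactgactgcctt
Tyms: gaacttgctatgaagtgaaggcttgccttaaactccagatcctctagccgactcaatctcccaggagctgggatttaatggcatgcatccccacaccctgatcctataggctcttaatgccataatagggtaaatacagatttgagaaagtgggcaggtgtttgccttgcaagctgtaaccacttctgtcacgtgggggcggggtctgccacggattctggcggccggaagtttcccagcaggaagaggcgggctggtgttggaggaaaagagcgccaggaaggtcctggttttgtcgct
Pcna: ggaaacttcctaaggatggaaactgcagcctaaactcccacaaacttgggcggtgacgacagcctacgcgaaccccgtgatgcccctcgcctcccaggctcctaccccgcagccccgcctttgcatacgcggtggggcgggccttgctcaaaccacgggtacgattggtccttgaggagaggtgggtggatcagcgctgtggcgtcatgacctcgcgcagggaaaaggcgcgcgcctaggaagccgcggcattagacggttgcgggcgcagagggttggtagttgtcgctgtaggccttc

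Counts were compared on the scale of CPM after TMM scaling of the libraries, and differences are given as log2 fold changes of the K794Q over the WT cultures, each with its standard error. A gene was counted as changed at a fold change of at least 2 with an unadjusted p of at most 0.05 in edgeR's quasi-likelihood test, the thresholds of the study. All 49 members passed the filter on low counts and were among the 11608 genes tested. The libraries held 9589826 to 15287191 counts, every member was counted in every culture, and the lowest count of a member was 5, of Dscc1 in K794Q-B. Summed CPM of 10 endothelial markers was 6529 to 12465 in all 6 cultures, highest in K794Q-B, with Pecam1 at 1779 CPM or more in each. Cldn5 was at 17.5, 0 and 24.3 CPM in the K794Q cultures and at 267, 252 and 4.74 CPM in the WT cultures. Epithelial markers summed to at most 0.592 CPM, and leukocyte markers to 31.8 to 104 CPM. Cd68 made up most of the latter in every culture, and Csf1r was at 10.7 CPM in WT-C against 0.774 CPM or less in the other 5. Ptprc was at 0.279 CPM or less and Cd3e at 0 in all 6 cultures. Mesenchymal markers summed to 2.58 to 3.75 CPM in β1-K794Q-GFP cells and 81.2 to 195 CPM in β1-WT-GFP cells. Prrx1, at 0 to 0.0987 CPM against 56.5 to 194 CPM, made up nearly all of the sum in WT-A and WT-B. In WT-C Prrx1 was at 56.5 CPM, with Pdgfra at 16.4 CPM, Col1a1 at 5.92 CPM and Pdgfrb at 2.30 CPM, where WT-A and WT-B had at most 0.700 CPM of each of the last 3. Col1a2 was at 3.16 CPM in K794Q-B and at 0.0860 CPM or less in the other 5 cultures. Dcn, Lum and Twist1 were at 0 in all 6 cultures. The part of these markers in the results was not tested.

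The replication genes were read more deeply on average in β1-K794Q-GFP than in β1-WT-GFP cells, but few of them differed by more than the spread between cultures. The fitted log2 fold change was above 0 for all 49 members, where 48.4% of all tested genes were above 0, with a median of 0.78 against -0.02 over all tested genes and a range from 0.21 (Mcm10) to 1.69 (Dscc1). Most members varied together over the same cultures, so these 49 signs are not separate observations. The list was also chosen with earlier results of these data known, and the count is a description only. A fold of at least 2 was fitted for 9 members (18.4%, against 6.16% of tested genes). Only 2 members also had a p of at most 0.05, Tyms and E2f1. That is 4.08% of the members, near the 3.48% of tested genes called higher and the 5.19% called in either direction. An unadjusted p of at most 0.05 was found for 5 members (Gins3, Pcna, Slbp, Tyms and E2f1), 10.2% of the list and 10.2% of all tested genes. With edgeR's quasi-likelihood test and Benjamini-Hochberg adjustment over all tested genes, 0 members had an adjusted p of at most 0.05 (background 0.181%), and the lowest was 0.228, of Pcna. DESeq2 gave 1 such member, Pcna, with an adjusted p of 0.032, where 4.11% of tested genes had one, and edgeR's likelihood ratio test gave 0 members, where 2.74% of tested genes had one. The share of members was therefore below that of all genes in both.

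**Figure D1:**
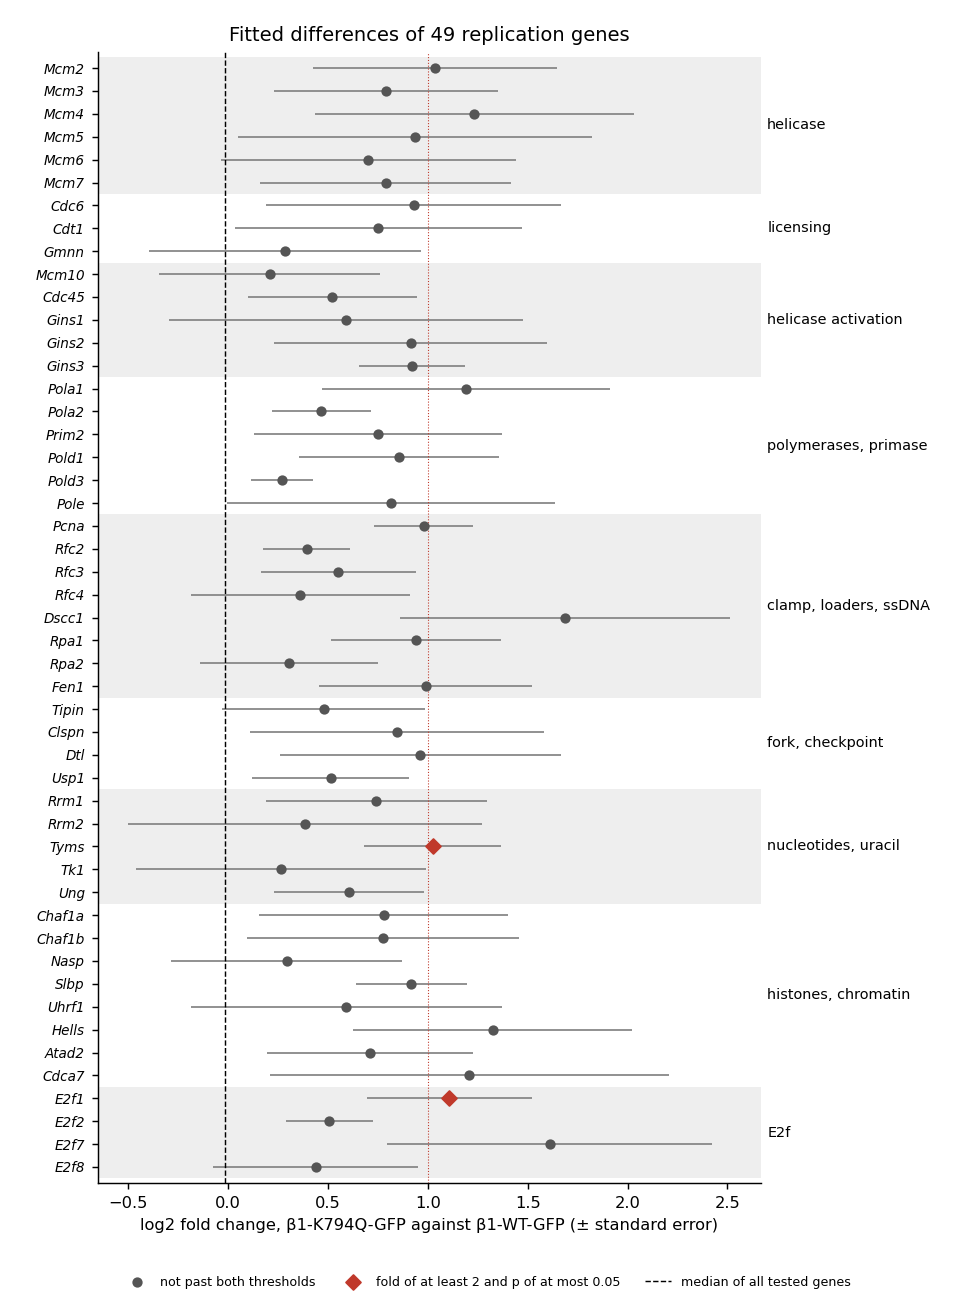
Fitted log2 fold change (β1-K794Q-GFP against β1-WT-GFP, n = 3 cultures each) with its standard error for each of the 49 members, grouped by role; the dashed line is the median of all tested genes and the dotted line a 2-fold difference. Every point lies above 0, most error bars are wide, and the 2 diamonds (Tyms and E2f1) are the members past both thresholds.

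The width of these errors came from the cultures, which did not follow the 2 groups. K794Q-A and K794Q-C were above WT-A and WT-B in 49 of 49 members. WT-C and K794Q-B each stood apart from their own group. WT-B was below culture C of the same group in 49 of 49 members, with a median ratio of culture C to culture B of 2.74. Within β1-K794Q-GFP cells, culture B was below culture A in 47 members and below culture C in 48, with median ratios of 2.76 (A to B) and 3.19 (C to B). K794Q-B was above both WT-A and WT-B in 27 members, below all 3 β1-WT-GFP cultures in 17, and at least 2-fold above WT-A in 1, Rrm2. K794Q-C was the highest culture in 39 members, K794Q-A in 5 (Mcm6, Pola2, Pold1, Pold3, E2f1), WT-C in 4 (Gmnn, Mcm10, Rrm2, Tk1) and K794Q-B in 1 (E2f2). The fold between the highest and lowest culture of the same group exceeded the fitted fold between groups in 39 members for β1-WT-GFP cells, in 44 for β1-K794Q-GFP cells and in 37 for both.

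**Figure D2:**
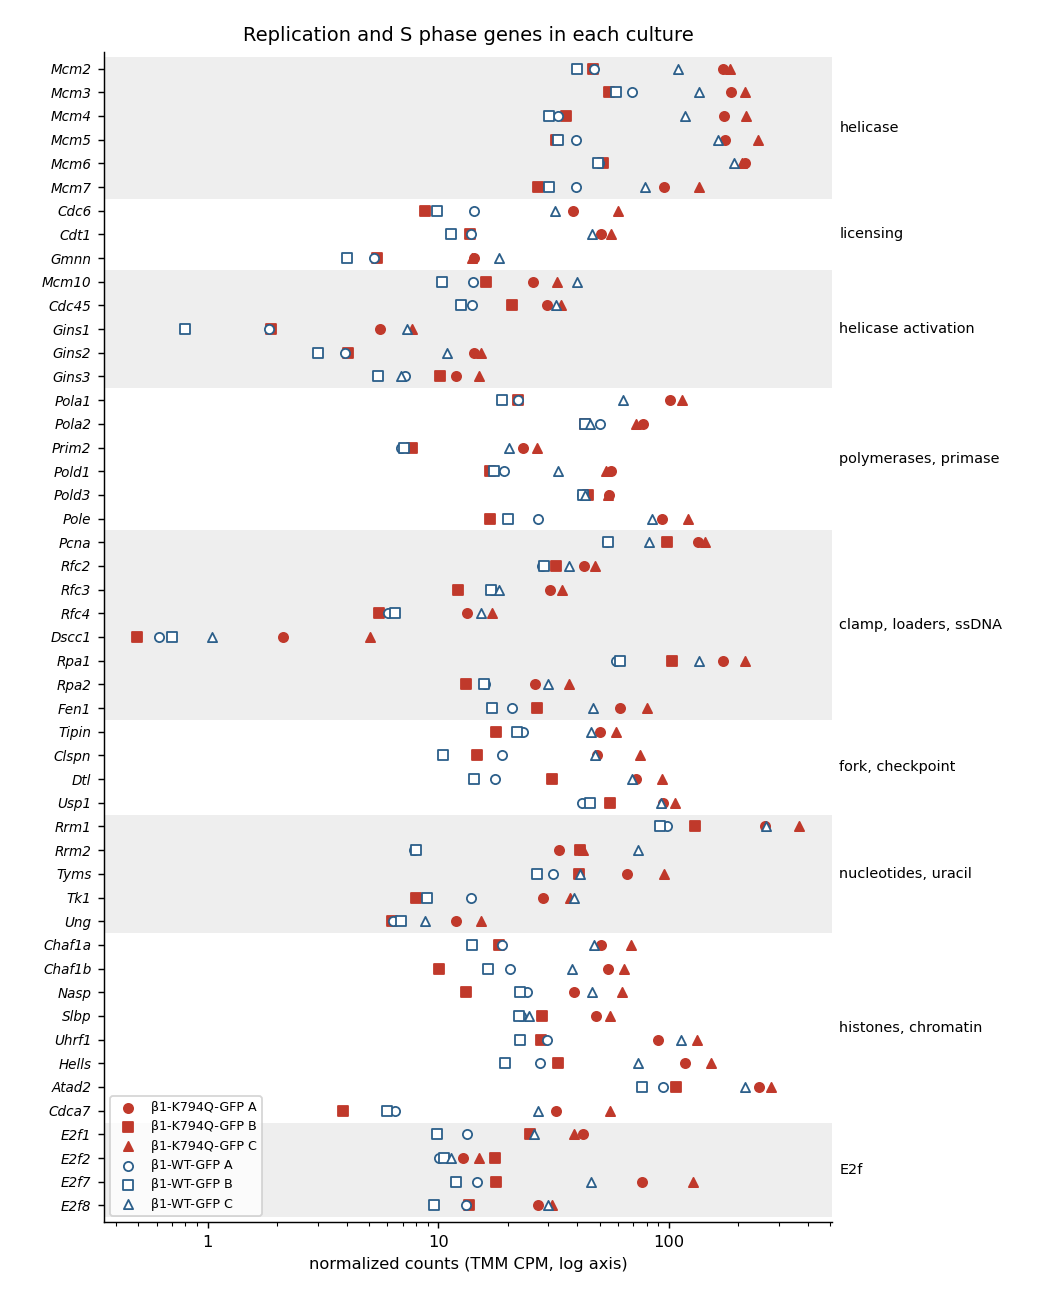
Normalized counts (CPM, log axis) of each member in each of the 6 cultures, grouped by role; filled red symbols are β1-K794Q-GFP and open blue symbols β1-WT-GFP, with circles, squares and triangles for cultures A, B and C. In most rows the red circle, red triangle and blue triangle lie to the right, and the red square lies with the blue circle and blue square.

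These differences between cultures were not confined to replication genes. WT-A and WT-B were at least 2-fold apart in 65 tested genes, but culture C was so in 2701 and 2539 genes against A and B. Among β1-K794Q-GFP cells, A and C were at least 2-fold apart in 903 genes, and B was so in 2001 and 2562 genes against A and C. Of the 49 members, 36 were at least 2-fold higher in WT-C than B (11.6% of tested genes), and 38 in K794Q-C than B (13.1% of tested genes).

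The calls depended on these cultures. With WT-C left out, 23 of the 49 members passed both thresholds (46.9%, against 5.99% of tested genes called higher), and the median log2 fold change of the members was 1.32. With K794Q-B left out, 18 passed (36.7%, against 5.25%) with a median of 1.13. With any of the other 4 cultures left out 0 members passed, and the lowest median, 0.38, was without K794Q-C. The labels give no reason to leave out a culture, and values below are from all 6 unless an omission is named.

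**Figure D3:**
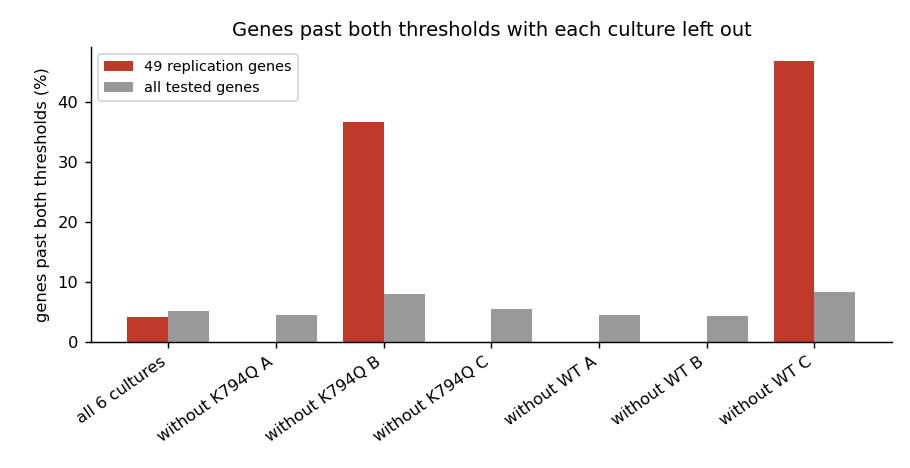
Percentage of genes past both thresholds (fold of at least 2, p of at most 0.05, either direction) with all 6 cultures and after omission of single cultures; red bars are the 49 members and grey bars all tested genes. The red bar is above the grey one only when K794Q-B or WT-C was omitted, and is at 0 for the 4 other omissions.

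In 5 members (10.2%) all 3 β1-K794Q-GFP cultures lay above all 3 β1-WT-GFP cultures, and in 0 members all lay below, where 8.45% of tested genes had all β1-K794Q-GFP cultures above. The 5 were Gins3, Pold3, Pcna, Slbp and E2f2. Two-sided exact permutation tests gave p = 0.1 for these 5, the smallest that 3 against 3 cultures allow, and at least 0.2 for the other 44. Cultures of the same group were less than 2-fold apart in both groups for 7 members, which were these 5 and the genes Pola2 and Rfc2.

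The 6 subunits of the replicative helicase, Mcm2 to Mcm7, shared the pattern over cultures. 0 of 6 passed both thresholds, with log2 fold changes between 0.70 (Mcm6) and 1.23 (Mcm4). Mcm4, a catalytic core subunit, was read at 174, 35.9 and 216 CPM in the K794Q cultures and at 33, 30.3 and 118 CPM in the WT cultures. K794Q-B lay with WT-A and WT-B, and WT-C lay nearer to the other β1-K794Q-GFP cultures, which left a log2 fold change of 1.23 ± 0.80 (adjusted p = 0.709 by edgeR). Mcm2 had 171, 47.1 and 185 CPM against 47.2, 40.1 and 109 CPM, with a log2 fold change of 1.03 ± 0.61 (adjusted p = 0.671). Mcm5 was the subunit most unequal between cultures of the same group, 7.53-fold in β1-K794Q-GFP and 4.92-fold in β1-WT-GFP cells. Per kb of the principal transcript, Mcm6 was at 73.4, 17.8 and 71.3 CPM per kb against 17.1, 17 and 65.9 CPM per kb, Mcm7 at 32, 9.10 and 45.5 CPM per kb against 13.3, 10.2 and 26.6 CPM per kb and Mcm4 at 48.5, 10.0 and 60.1 CPM per kb against 9.19, 8.44 and 32.8 CPM per kb. On this scale Mcm3 or Mcm6 was the highest subunit in every culture except K794Q-C, where Mcm5 was, and Mcm4 or Mcm7 was the lowest in all 6.

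Licensing genes did not pass the thresholds either (0 of 3). Cdc6, the ATPase that loads the helicase, was at 38.4, 8.78 and 59.9 CPM against 14.3, 9.90 and 32 CPM, with a log2 fold change of 0.93 ± 0.74 (adjusted p = 0.775 by edgeR). Cdt1, its partner in loading, was at 50.7, 13.7 and 56 CPM against 13.8, 11.4 and 46.2 CPM, with a log2 fold change of 0.75 ± 0.72. Gmnn (geminin), the inhibitor of Cdt1, had the smaller difference at 14.3, 5.43 and 13.9 CPM against 5.25, 4.0 and 18.3 CPM, with a log2 fold change of 0.29 ± 0.68. In Gmnn the highest culture was WT-C, and the groups overlapped in all 3 genes.

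Among the 5 genes of helicase activation, Gins3 stood out for its even cultures. Gins3 (chr8:95633453-95645060, plus strand), a subunit of the GINS complex, was read at 11.9, 10.2 and 15 CPM in the K794Q cultures and at 7.17, 5.50 and 6.89 CPM in the WT cultures. The lowest β1-K794Q-GFP culture was above the highest β1-WT-GFP culture, with a log2 fold change of 0.92 ± 0.26 (adjusted p = 0.287 by edgeR, from an unadjusted p of 0.012). The other GINS members followed the cultures instead. Gins2 was at 14.3, 4.05 and 15.3 CPM against 3.94, 3.0 and 10.9 CPM, with a log2 fold change of 0.91 ± 0.68, and 67.3% of its annotated exon bases overlap Gse1 on the opposite strand, where the strand setting of the counting is not given. Gins1, at 5.58, 1.88 and 7.65 CPM against 1.84, 0.800 and 7.31 CPM, differed 9.14-fold between β1-WT-GFP cultures. Cdc45, which completes the active helicase, was at 29.7, 20.8 and 34 CPM against 14, 12.5 and 32.2 CPM, and Mcm10, which helps to start it, had the smallest fitted difference of all members (a log2 fold change of 0.21 ± 0.55).

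Of the 6 polymerase and primase genes 0 passed both thresholds. Pola1, the catalytic subunit of polymerase α, was read at 101, 22.2 and 114 CPM in the K794Q cultures and at 22.1, 18.8 and 63.1 CPM in the WT cultures. Its cultures split as those of the helicase did, with a log2 fold change of 1.19 ± 0.72 (adjusted p = 0.685 by edgeR). Pold1, the catalytic subunit of polymerase δ, was at 55.9, 16.8 and 53.5 CPM against 19.2, 17.5 and 33 CPM, with a log2 fold change of 0.85 ± 0.50. Pold3, an accessory subunit of polymerase δ, did not follow Pold1: it was at 54.8, 44.7 and 54.6 CPM against 42.1, 42.4 and 43.4 CPM. In Pold3 (chr7:100082111-100121565, minus strand) cultures of the same group lay within 1.23-fold, and the groups were apart by a small margin, with a log2 fold change of 0.27 ± 0.16 (adjusted p = 0.666 by edgeR, from an unadjusted p of 0.133). Pola2, the accessory subunit of polymerase α, was less even, at 76.8, 43.1 and 71.7 CPM against 50.1, 43.2 and 45.5 CPM (a log2 fold change of 0.47 ± 0.25). Its cultures were 1.78-fold apart within β1-K794Q-GFP cells, and K794Q-B was just below the lowest β1-WT-GFP culture. Pole and Prim2 had log2 fold changes of 0.82 ± 0.82 and 0.75 ± 0.62.

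**Figure D4:**
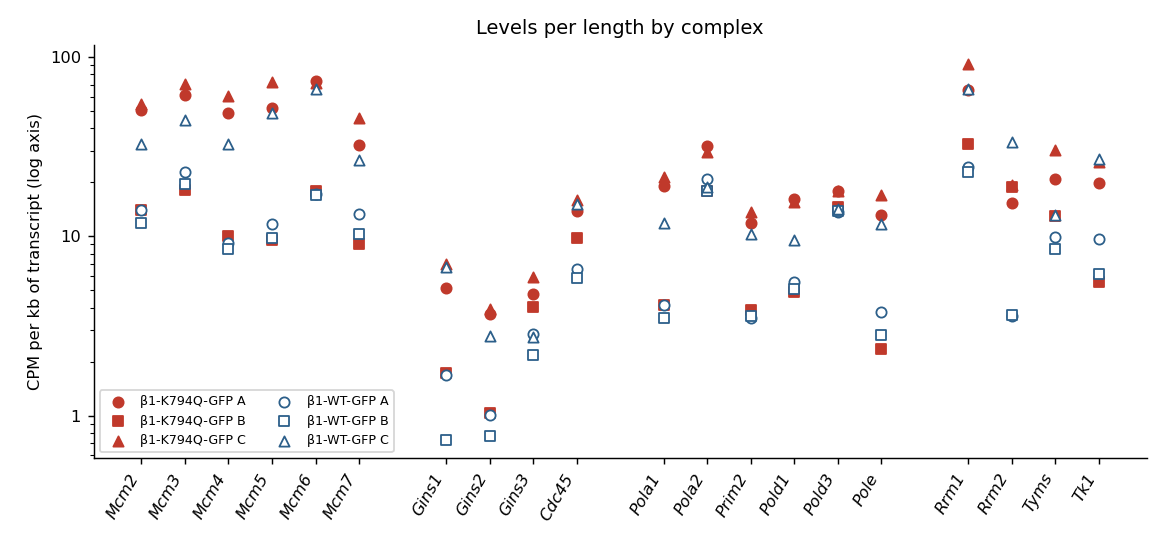
CPM per kb of the principal transcript (log axis) of helicase, GINS and Cdc45, polymerase and primase, and nucleotide genes in each culture; symbols as in the plot of all members. For each of the 6 helicase subunits K794Q-A, K794Q-C and WT-C are the 3 highest cultures, whereas Gins3, Pola2 and Pold3 are narrower than these subunits and in Rrm2 K794Q-B lies with K794Q-A and K794Q-C.

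Pcna (chr2:132249162-132253314, minus strand), the sliding clamp that holds polymerases on DNA, had the lowest p of the 49 members. It was read at 134, 98.1 and 144 CPM in the K794Q cultures and at 54, 54.6 and 81.8 CPM in the WT cultures. All 3 β1-K794Q-GFP cultures were above the highest β1-WT-GFP culture, K794Q-B included, with a log2 fold change of 0.98 ± 0.25 (adjusted p = 0.228 by edgeR, from an unadjusted p of 0.0068), just under the 2-fold threshold. Its unadjusted p stayed between 0.00209 and 0.0311 with any culture left out, and its log2 fold change between 0.87 and 1.22. The annotation lists processed pseudogenes of Pcna, and reads that fit both copies cannot be told apart here.

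The other 7 genes of the clamp group did not pass both thresholds. Dscc1, a subunit of an alternative clamp loader, had the largest fitted difference of the members, at 2.12, 0.493 and 5.07 CPM against 0.612, 0.700 and 1.04 CPM (a log2 fold change of 1.69 ± 0.83, adjusted p = 0.589). It was also the most thinly read, and K794Q-B held the lowest value of all 6 cultures. Fen1, which removes flaps on the lagging strand, was at 61.5, 26.8 and 80.0 CPM against 20.8, 17.1 and 46.8 CPM, with a log2 fold change of 0.99 ± 0.53, and 78.8% of its exon bases overlap an antisense gene. Rpa1, the large subunit of the single strand binding protein RPA, was at 171, 103 and 214 CPM against 58.9, 61.4 and 134 CPM (a log2 fold change of 0.94 ± 0.43), and its partner Rpa2 at 26.2, 13.2 and 36.9 CPM against 16, 15.8 and 30.0 CPM (a log2 fold change of 0.30 ± 0.45). In Rpa1 K794Q-B was above WT-A and WT-B, and in Rpa2 it was below all 3 β1-WT-GFP cultures. The loader subunits Rfc2, Rfc3 and Rfc4 had log2 fold changes of 0.39, 0.55 and 0.36. On the opposite strand, Lat2 overlaps 15.1% of the exon bases of Rfc2, and Eif4a2 overlaps 12.7% of those of Rfc4. Mean counts were 283 in K794Q and 76.3 in WT cultures for Lat2, and 2572 and 2650 for Eif4a2.

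Fork and checkpoint genes (0 of 4 past the thresholds) had log2 fold changes between 0.48 (Tipin) and 0.96 (Dtl). Dtl, which targets Cdt1 for destruction at Pcna, was at 71.8, 31.1 and 93.7 CPM against 17.6, 14.3 and 68.9 CPM, with a log2 fold change of 0.96 ± 0.71 (adjusted p = 0.755 by edgeR). Claspin (Clspn), the mediator of checkpoint kinase Chk1, was at 49, 14.7 and 74.6 CPM against 18.8, 10.5 and 47.6 CPM, with a log2 fold change of 0.84 ± 0.74. In both genes WT-C lay close to K794Q-A. Usp1, a deubiquitinase that acts on Pcna, was at 94.4, 55.5 and 106 CPM against 41.8, 45.3 and 92.1 CPM.

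Among 5 genes of nucleotide supply and uracil removal, Tyms rose past both thresholds. Tyms (chr5:30058202-30073617, minus strand), thymidylate synthase, was read at 66, 40.8 and 95.5 CPM in the K794Q cultures and at 31.3, 26.8 and 41.3 CPM in the WT cultures. K794Q-A and K794Q-C were above all β1-WT-GFP cultures, and K794Q-B was just below WT-C, which gave a log2 fold change of 1.02 ± 0.35 (adjusted p = 0.366 by edgeR, from an unadjusted p of 0.0235). Tyms lost the call without K794Q-A or K794Q-C or WT-A or WT-B, where its p was 0.0548, 0.0738, 0.0691 and 0.0778. Its pseudogene row Tyms-ps held 0 to 3 counts per culture.

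The subunits of ribonucleotide reductase, which makes deoxynucleotides, did not share a pattern. Rrm1, the large subunit, was at 261, 129.7 and 366 CPM against 97.6, 91.1 and 264 CPM, with a log2 fold change of 0.74 ± 0.55. Rrm2, the small subunit that is made in S phase, was at 33.4, 41.4 and 42.5 CPM against 7.87, 8.0 and 73.8 CPM, with a log2 fold change of 0.38 ± 0.89, and was singled out after its values were seen. All 3 β1-K794Q-GFP cultures of Rrm2 were within 1.27-fold, WT-A and WT-B were lower, and WT-C was the highest of the 6. Per kb of the principal transcript, Rrm2 was at 15.2, 18.9 and 19.4 CPM per kb against 3.59, 3.65 and 33.6 CPM per kb and Rrm1 at 65.3, 32.4 and 91.7 CPM per kb against 24.4, 22.8 and 66 CPM per kb, so that the large subunit was the higher in all 6 cultures on this scale. Without WT-C, Rrm2 had a log2 fold change of 2.31 and, by edgeR, an adjusted p of 0.0315 (0.236% of tested genes had one of at most 0.05 in that fit), and without WT-A or WT-B the sign turned (-0.07 each). Tk1, the thymidine kinase of the salvage pathway, was at 28.4, 7.99 and 37.4 CPM against 13.8, 8.90 and 38.7 CPM (a log2 fold change of 0.26 ± 0.73), and Ung, which excises uracil, at 11.9, 6.32 and 15.3 CPM against 6.39, 6.90 and 8.77 CPM (a log2 fold change of 0.60 ± 0.38).

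Of 8 histone and chromatin genes 0 passed both thresholds, and Slbp came nearest. Slbp (chr5:33634952-33652574, minus strand), which binds the stem-loop of replication-dependent histone messages, was read at 48.1, 28 and 55.7 CPM in the K794Q cultures and at 22.7, 22.3 and 24.8 CPM in the WT cultures. The β1-WT-GFP cultures lay within 1.11-fold, culture C included, and all 3 β1-K794Q-GFP cultures were above them, with a log2 fold change of 0.92 ± 0.28 (adjusted p = 0.306 by edgeR, from an unadjusted p of 0.0154). The chromatin factors with the largest fits were uneven. Hells, a remodeller needed for DNA methylation, was at 117, 33.2 and 152 CPM against 27.7, 19.5 and 73.4 CPM, with a log2 fold change of 1.32 ± 0.70 (adjusted p = 0.62). Cdca7, the partner of Hells, was at 32.3, 3.85 and 55.6 CPM against 6.47, 6.0 and 27.1 CPM, with a log2 fold change of 1.21 ± 1.00, and was 14.4-fold apart within β1-K794Q-GFP cells, the widest ratio of any member. Chaf1a and Chaf1b, subunits of the histone loader CAF-1, had log2 fold changes of 0.78 ± 0.62 and 0.78 ± 0.68, and 52.5% of the exon bases of Chaf1a overlap Ubxn6 on the opposite strand. Uhrf1, which guides maintenance methylation, Atad2 and the histone chaperone Nasp had log2 fold changes of 0.59, 0.71 and 0.29.

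Of the 4 E2f members, E2f1, E2f7 and E2f8 had their lowest values in WT-B, WT-A and K794Q-B, and E2f2 departed from this order. E2f1 (chr2:154559407-154569892, minus strand), an activator of replication genes, was read at 42.4, 25 and 38.9 CPM in the K794Q cultures and at 13.3, 9.90 and 26 CPM in the WT cultures. It rose past both thresholds, with a log2 fold change of 1.11 ± 0.41 and an unadjusted p of 0.0348, which edgeR's adjustment over all genes took to 0.425. WT-C was slightly above K794Q-B, so the groups overlapped. E2f1 lost the call without K794Q-A or K794Q-C or WT-A or WT-B, where its p in edgeR's test was 0.107, 0.0846, 0.103 and 0.0897. E2f2 (chr4:136172394-136196057, plus strand), another activator, was at 12.8, 17.7 and 15 CPM in the K794Q cultures and at 10.1, 10.6 and 11.4 CPM in the WT cultures. This was the only member with its highest value in K794Q-B, and the groups did not overlap, with a log2 fold change of 0.51 ± 0.22 (adjusted p = 0.513 by edgeR, from an unadjusted p of 0.0582).

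E2f7 and E2f8 encode repressors that are themselves E2F targets and close the program later in S phase. E2f7 (chr10:110745439-110787384, plus strand) was read at 76.5, 17.8 and 127 CPM in the K794Q cultures and at 14.7, 11.9 and 45.8 CPM in the WT cultures. It followed the cultures widely, 7.16-fold within β1-K794Q-GFP cells, with a log2 fold change of 1.61 ± 0.81 (adjusted p = 0.604 by edgeR, from an unadjusted p of 0.0928). DESeq2 and edgeR's likelihood ratio test called it, and these tests called 4% and 4.12% of tested genes higher. E2f8 was at 27.1, 13.5 and 31 CPM against 13.2, 9.60 and 29.9 CPM, with a log2 fold change of 0.44 ± 0.51. E2f7 differed from the other members in where it lies. The 24 tested genes nearest to it on chromosome 10 had a median log2 fold change of 1.08, and 48 other members had neighbours with medians from -0.44 (Mcm6) to 0.30 (Gmnn). Relative to the β1-WT-GFP mean, the median of these neighbours was 0.85, 0.60 and 0.97 on the log2 scale in the 3 K794Q cultures and within -0.05 to 0.08 in β1-WT-GFP cultures. E2f7 itself was at 1.64, -0.43 and 2.37 on that scale in the 3 K794Q cultures and at -0.70, -0.99 and 0.91 in the 3 WT cultures. The part of the neighbouring genes in the value of E2f7 was not tested.

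The rest of the pathway was read from a list of 60 other replication genes, all of which were tested. Of these 60, 5 rose past both thresholds (8.33%, against the same 3.48% of tested genes), and 0 fell. A log2 fold change above 0 was fitted for 48, and the median was 0.45. The 5 were Prim1, Timeless, Ccne1, Ccne2 and Cdk2. Prim1 and Timeless are partners of members, and both lie near Cdk2 on chromosome 10, so the 5 are not separate observations. The study had reported Ccne1 and Cdk2 as upregulated, and the list was chosen with earlier results of these data known. The share is therefore a description only.

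Prim1, the catalytic primase subunit that pairs with Prim2, was at 207, 17.1 and 179.7 CPM against 11.7, 11.7 and 25.8 CPM, with a log2 fold change of 3.03 ± 0.91 (adjusted p = 0.299 by edgeR). Its partner Prim2 was at 23.3, 7.70 and 26.8 CPM against 6.91, 7.10 and 20.3 CPM, with a log2 fold change of 0.75 ± 0.62. Timeless, the fork protection partner of Tipin, was at 279.6, 269 and 267 CPM against 44.2, 36.4 and 29.5 CPM, with a log2 fold change of 2.89 ± 0.21, and was the only gene of this list with an adjusted p of at most 0.05 by edgeR (0.0198). Tipin had 50.3, 17.8 and 59.1 CPM against 23.4, 21.9 and 46 CPM, with a log2 fold change of 0.48 ± 0.51. In Timeless K794Q-B was level with cultures A and C, whereas in Tipin it was the lowest of the 6. Cdk2, a kinase that helps to fire origins, was at 237, 61.8 and 272 CPM against 58, 55.8 and 47.1 CPM, with a log2 fold change of 1.83 ± 0.53. The 22 to 24 tested genes nearest to Prim1, Timeless and Cdk2 had median log2 fold changes of 1.23, 1.39 and 1.43, and the part of these neighbours was not tested.

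Ccne1 and Ccne2, the cyclins that activate Cdk2, followed the cultures as members did, at 27.2, 5.33 and 26.1 CPM against 3.06, 3.30 and 8.50 CPM (a log2 fold change of 1.97 ± 0.72) and 55.9, 13.8 and 76.3 CPM against 9.71, 6.80 and 20.5 CPM (a log2 fold change of 1.98 ± 0.70), and the medians of their neighbours were -0.06 and -0.12. Groups did not overlap in 8 of the 60 genes. Timeless, Cdk2, Ctc1, Mcm9 and Rb1 were above, 5 genes where 8.45% of tested genes were, and Orc4, E2f4 and Top1 below, 3 genes where 8.12% of tested genes were, with log2 fold changes for the last 3 of -0.27, -0.48 and -0.33. Among them the pocket protein Rb1 was at 58.4, 67.6 and 67.9 CPM against 41.2, 44.7 and 55.1 CPM and the repressor E2f4 at 39.1, 39 and 40.0 CPM against 48.7, 53.6 and 62 CPM.

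Replication genes were also set against 12 genes of G2 and mitosis, since both rise in cycling cells. The members summed to 3596, 1435 and 4425 CPM in the 3 K794Q cultures and to 1276, 1126 and 3021 CPM in the 3 WT cultures. The G2 and mitosis genes summed to 682, 452 and 1129 CPM and to 441, 357 and 1420.1 CPM in the same order. WT-C was the highest culture in 10 of the 12, and their median log2 fold change was -0.22, with 0 of 12 past both thresholds and 0 with an unadjusted p of at most 0.05 in edgeR's test. The ratio of member counts to G2 and mitosis counts was 5.27, 3.17 and 3.92 in the 3 K794Q cultures and 2.89, 3.15 and 2.13 in the 3 WT cultures. All 3 β1-K794Q-GFP values were above the β1-WT-GFP values, but K794Q-B (3.17) and WT-B (3.15) lay next to each other. In bulk RNA, fewer cells in S phase and less messenger RNA per cell cannot be told apart.

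**Figure D5:**
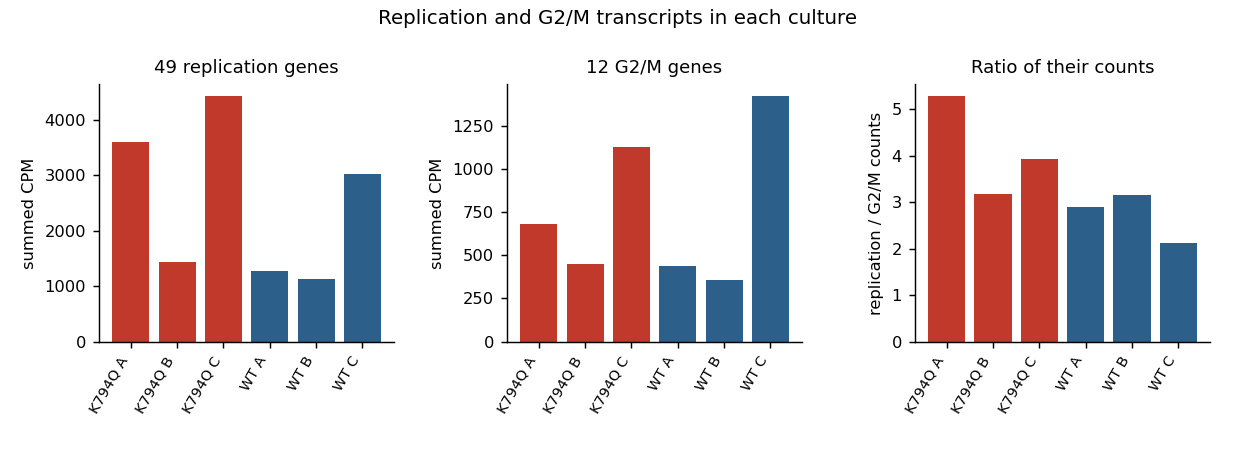
Summed CPM of the 49 members (left) and of 12 G2 and mitosis genes (middle), and the ratio of their summed counts (right), in each culture; red bars are β1-K794Q-GFP and blue bars β1-WT-GFP, with axes from 0. K794Q-C is highest on the left and WT-C in the middle, and the ratio runs from 2.13 (WT-C) to 5.27 (K794Q-A).

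The motif classes of the promoters were compared on the fitted values as a description. The 18 members with the searched E2F letters had a median log2 fold change of 0.85, and the 20 members with a promoter but without them 0.67. Of the 5 members with an unadjusted p of at most 0.05, Gins3 held the letters, and Pcna, Slbp, Tyms and E2f1 did not in the windows searched. The window of E2f1, counted among the members without the letters, did not cover the sequence upstream of its annotated 5′ end. Members with CCAAT had a median of 0.78 and those without 0.82. The 7 members with TTTGAA had a median of 0.52, and the 31 without it 0.79.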

How the data were processed

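RNA of 3 β1-K794Q-GFP and 3 β1-WT-GFP cultures was sequenced. The table as deposited holds raw, unscaled read counts by mouse gene symbol in 6 columns, made by the authors, and 0 further per-sample columns were found. The submitters' processing notes name bcl2fastq 2.20.0, STAR 2.7.4a, HTSeq 0.9.1, edgeR 3.38.4 and build mm10, without their roles; the strand setting of the counting, and which of the 2 sequencing runs described by the study the table holds, are not given in the sources used here. If counting ignored strand, reads of overlapping genes on opposite strands were mixed or dropped.

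Differences were fitted with edgeR 4.0.16 under R 4.3.3 (filterByExpr, TMM, quasi-likelihood F-test, two-sided, Benjamini-Hochberg over all tested genes) on the whole table. The study's methods name edgeR normalization, this F-test and the thresholds; the filter, TMM and the adjustment were chosen here. CPM used the TMM library sizes of that fit. A call needed a 2-fold difference or more together with an unadjusted p no higher than 0.05. The script was tested on simulated data with the same dispersion (spread beyond counting error) for all genes and cultures. No culture stood apart there, so that test does not cover how calls depend on single cultures. Alternatives were other filters, RLE normalization, DESeq2 1.42.0, edgeR's likelihood ratio test, a replicate block and omission of each culture. The total per culture was 9589826 to 15287191 counts; 3 counts correspond to 0.196 to 0.313 per 10 to the power 6 counts, a floor that covers counting error only. Cultures WT-A and WT-B, the most alike, differed by more than sampling noise (chi-square per degree of freedom 9.97). That excess cannot show whether the cultures came from separate transfections or sorts. Each culture was counted as 1 replicate.

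Gene positions, exon overlaps and lengths (longest APPRIS principal transcript) were read from the GENCODE M21 annotation of GRCm38, in which 49 of 49 members were matched by symbol. Neighbours were up to 12 tested genes on each side. Values relative to the WT mean are log2 of (CPM + 0.5). Members with full values were those past the call rule, those without overlap between groups, the 2 with the largest fitted difference in each role and the E2f genes; other replication genes were named where called, without overlap or partners of a member. The members and lists were chosen with earlier results of these data known.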

Additional observations from a re-analysis of the deposited data

How the results depend on the processing

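The members called were 2 with no filter on low counts, with at least 10 counts in every culture (47 members tested) and with RLE normalization, and 3 with DESeq2 and with the likelihood ratio test, which added E2f7. With 1 culture left out the number ran from 0 to 23, and the number with an adjusted p of at most 0.05 by edgeR from 0 to 1 (Rrm2, without WT-C), while 2.67% to 5.99% of tested genes were called higher and 0% to 1.05% had such an adjusted p. DESeq2 gave 1 (Pcna, adjusted p = 0.032), against 4.11% of all tested genes. The other replication genes called ran from 2 to 13, and the members' median log2 fold change from 0.38 to 1.32. The sign turned in some omissions for Gmnn (-0.073 to 1.29), Mcm10 (-0.12 to 1.03), Rpa2 (-0.065 to 0.69), Rrm2 (-0.070 to 2.31), Tk1 (-0.17 to 1.13) and Nasp (-0.26 to 0.71), and all alternatives that kept 6 cultures left every member tested above 0. The cause of these changes was not tested. With counts scaled to the total alone, 4 members did not overlap between groups. The share of all tested genes under that scaling is not given here, so this count is not read further. Cultures of the 2 groups share letters, and their deviations correlated by 0.12 (A), 0.056 (B) and 0.109 (C); K794Q-A correlated best with WT-B, so the letter is not taken as a pairing. A replicate block by letter gave 4 members called (Dtl, Hells, E2f1, E2f7) and 9 other replication genes, where 3.20% of tested genes were called higher. Leaving out a culture leaves 2 against 3, and 3 cultures per group cannot give an exact permutation p under 0.1. Genes such as Dscc1 and Gins1, counted fewer than 10 times in some culture, carry the least precision.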
